A study of Mus musculus with 6 samples.

Results

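The genes described here encode the metalloproteinases that cut extracellular matrix and cell surface proteins, together with the tissue inhibitors that block them. They were taken by symbol from the platform annotation: matrix metalloproteinases (Mmp), ADAM proteases (Adam), ADAMTS proteases (Adamts) and the tissue inhibitors of metalloproteinases (Timp1 to Timp4), each from a probe set listed under a single gene. The rule gave 75 of 30714 measured genes: 22 Mmp, 31 Adam, 18 Adamts and 4 Timp genes, so 71 proteases and 4 inhibitors, each with a single probe set. The rule uses the symbol and no measured value. Adam members without protease activity, such as Adam22 and Adam23, are counted with the proteases.

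The data are 6 Affymetrix arrays of bone marrow stromal cells (BMSCs) from mice, the adherent cells of the marrow that give rise to bone, cartilage and fat cells in culture. The young group was 3 arrays from mice aged 3 months and the aged group was 3 arrays from mice aged 18 months. In both groups cells were released from crushed femurs with collagenase, sorted as Sca-1+ CD29+ CD45- CD11b- and grown in culture, with the first-passage cells seeded again in flasks, before RNA was taken, so the cells had met a matrix-cutting enzyme and a culture period before measurement. Arrays within an age are labelled as biological replicates, but neither strain, sex nor the number of mice behind an array is stated in the labels, so each p-value reflects the spread among arrays only, which may be technical. With bulk RNA, fewer cells of a type and less RNA per cell cannot be told apart.

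Matrix metalloproteinases are secreted or membrane-bound zinc enzymes that are made as inactive proenzymes. Collagenases open the collagen triple helix, gelatinases digest the unwound chains, and stromelysins cut proteoglycans and activate other proenzymes; membrane-type enzymes act at the cell surface. ADAM proteases are membrane proteins that shed the outer parts of other membrane proteins, and ADAMTS proteases are secreted enzymes that cut proteoglycans, procollagens and other matrix proteins. TIMPs bind the active site; Timp3 protein stays in the matrix and also blocks several ADAM and ADAMTS enzymes. In bone, Mmp13 and Mmp14 are known for their part in collagen turnover.

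Levels are the authors' deposited log2 values. A level is compared only with other levels of the same probe set, since probe sets differ in brightness. The 95th percentile of the negative control probe sets was 7.61 on this scale. A gene with a mean under 7.61 in either age is given as levels and a log2 difference without a fold, because its true ratio is not known. The array medians of all transcript clusters ran from 5.39 to 5.44, and age and any culture or hybridisation batch cannot be told apart, as no batch is given in the sources used here. Of the sort markers, Itgb1 (CD29) was bright, at 11.86 in young and 11.76 in aged cells, and Ptprc (CD45) and Itgam (CD11b) were within the negative control range, at 3.65 and 3.62, and at 5.26 and 5.24. Ly6a (Sca-1) was not analysed here. Of 11 measured stromal markers 7 lay above the negative control range. Those that did not were Lum (lumican), at 3.88 and 4.00, Thy1, at 6.31 and 6.28, Eng, at 6.53 and 6.60, and Nt5e. Nt5e, at 7.58 and 7.05, was the stromal marker that fell.

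Of the 75 genes, 44 were bright enough to be tested and 31 were not, because their mean over all arrays lay below the median of all transcript clusters (5.40). The 31 were 9 MMP genes, 21 ADAM genes and Adamts19. When all genes were fitted without the filter, 1 of the 31, Adam5, was higher and 0 were lower. Among the 44, 23 were higher and 3 lower in aged cells (limma, Benjamini-Hochberg adjusted p under 0.05 over all genes tested), or 52.3% and 6.82%. Across all 20199 genes tested, 18.5% were higher and 22.1% lower, and 40.6% passed in either direction. The median difference, aged minus young, was 0.18 on the log2 scale over the 44 genes and 0.01 over all genes tested. In 30 of the 44 genes (68.2%) every aged array lay on one side of every young array, as in 51.3% of all genes tested. Of the 44 tested genes, 9 passed with a difference of at least 0.5 on the log2 scale, all of them upward. Of all 20199 genes tested, 5.43% rose and 2.93% fell by that much and passed. Adam22, Mmp3 and Timp4 reached the filter through their aged arrays, with young means of 5.29, 5.26 and 5.40, so counts over the tested genes are not counts over the families.

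Small differences need the size of the background shift beside them. The 23 antigenomic background classes, probes that match no mouse sequence, were all higher in aged arrays. The shift was from 0.006 to 0.29 on the log2 scale (median 0.11), and 10 of the 26 differences that passed were smaller than 0.29 in size. These were Mmp2, Mmp16, Mmp19, Adam8, Adam9, Adam15, Adamts9, Adamts10, Adamts14 and Timp4. The negative control probe sets had a median difference of -0.26 and the positive controls one of -0.15. The part of these shifts in the small differences was not tested.

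**Figure D1:**
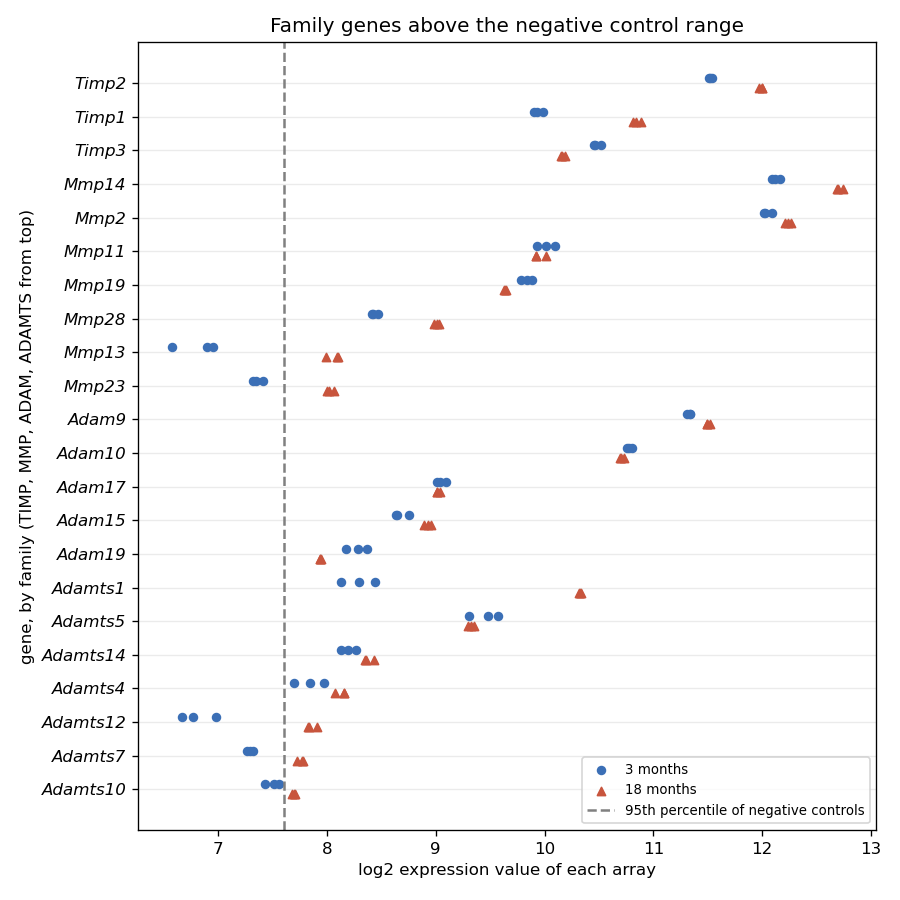
Log2 expression value (horizontal axis) of the 22 family genes with a mean above the negative control range in at least 1 age (vertical axis, by family); circles are the 3 young arrays, triangles the 3 aged arrays, and the dashed line is the 95th percentile of the negative controls at 7.61. Adamts1, Mmp13, Adamts12 and Timp1 shift furthest to the right in the aged arrays, whereas Timp3, Mmp19 and Adam19 shift to the left.

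The inhibitors moved in opposite directions. Timp1 and Timp2 rose, Timp3 fell, and Timp4 was dim. Timp1, a secreted inhibitor induced in many injured tissues, read 9.98, 9.93 and 9.90 in young arrays and 10.84, 10.81 and 10.89 in aged arrays. Every aged value lay above every young value, and the rise was 1.87-fold (log2 difference 0.91, limma, adjusted p = 1.45e-07). Timp2, which blocks MMPs and also links pro-Mmp2 to Mmp14 at the cell surface, read 11.535, 11.515 and 11.523 in young and 11.997, 11.974 and 12.002 in aged arrays. The groups again did not overlap, and the rise was 1.38-fold (limma, adjusted p = 1.34e-06).

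Timp3, the inhibitor that is held in the matrix, read 10.52, 10.47 and 10.46 in young and 10.16, 10.15 and 10.19 in aged arrays. All aged values were below all young values, and the decrease was 1.24-fold (log2 difference -0.31, limma, adjusted p = 4.32e-05). Timp4, an inhibitor best known from heart, read 5.28, 5.37 and 5.56 in young and 5.66, 5.70 and 5.68 in aged arrays. Its difference of 0.28 passed (limma, adjusted p = 0.0176), but both means were within the negative control range, and it did not pass without young replicate 2, aged replicate 2 or aged replicate 3 (log2 difference 0.22 to 0.36 over all alternatives).

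Among the collagenases only Mmp13 was bright enough to be tested. Mmp13, the main collagenase of rodent bone and cartilage, read 6.96, 6.90 and 6.57 in young and 8.10, 8.09 and 7.99 in aged arrays. The aged arrays were all above the negative control range and the young arrays all within it, and the difference was 1.25 on the log2 scale (limma, 95% confidence interval 1.04 to 1.47, adjusted p = 9.65e-06). Mmp8, the neutrophil collagenase, and Mmp1a and Mmp1b were dim in both ages, with means from 3.11 to 4.57.

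Of the gelatinases, Mmp2, the gelatinase of most stromal cells, rose by 0.19 on the log2 scale, from 12.04 ± 0.04 to 12.24 ± 0.03 (SD, n = 3 each), or 1.14-fold (limma, adjusted p = 0.000992). That difference is smaller than the largest background shift. Mmp9, a gelatinase made by osteoclasts and myeloid cells, had young and aged levels of 7.28 ± 0.04 and 7.35 ± 0.03 (SD, n = 3 each), too dim to stand clear of the negative controls, and did not pass (limma, adjusted p = 0.289). Markers of the cells that make Mmp9 stood as follows. Of the tested markers 12.5% of macrophage and monocyte, 16.7% of osteoclast and 28.6% of neutrophil markers were higher, where 18.5% of all 20199 genes were. Of 13 macrophage and monocyte markers none lay above the negative control range, 8 were tested and 1, Cd14, rose. The mean log2 value of those 13 markers ranged from 5.73 to 5.84 over young arrays and from 5.79 to 5.83 over aged arrays. Of 9 osteoclast markers 6 were tested and 1 rose, Ctsk, which stromal cells also express. Of 10 neutrophil markers none lay above the negative control range, and 2 of the 7 tested rose.

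Membrane-type MMPs were led by Mmp14, the surface collagenase that also activates pro-Mmp2. Mmp14 read 12.16, 12.11 and 12.09 in young and 12.70, 12.69 and 12.74 in aged arrays. The groups were well apart, and the rise was 1.51-fold (log2 difference 0.59, limma, adjusted p = 9.6e-07). Mmp16 rose by 0.19 within the negative control range (6.99 to 7.18), a call that was lost without aged replicate 3. Mmp17, Mmp24 and Mmp25, at levels between 5.90 and 6.90, did not pass. Without young replicate 3, Mmp17 was higher (log2 difference 0.18, limma, adjusted p = 0.0138). Mmp15, another membrane-type enzyme, was not among the 75 genes.

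Of the remaining MMPs, Mmp28 and Mmp23 rose and Mmp19 fell. Mmp28 (epilysin) read 8.47, 8.42 and 8.43 in young and 9.01, 8.98 and 9.03 in aged arrays, a 1.49-fold rise (limma, adjusted p = 2.35e-06). Mmp23, a membrane enzyme without the usual hemopexin domain, read 7.32, 7.41 and 7.35 in young and 8.015, 7.999 and 8.063 in aged arrays. Its young values lay within the negative control range and its aged values above it (log2 difference 0.67, limma, adjusted p = 4.67e-06). Mmp19, which digests basement membrane proteins, fell from 9.84 ± 0.05 to 9.64 ± 0.01 (SD, n = 3 each), a decrease of 0.20 on the log2 scale (limma, adjusted p = 0.0015). In size it is smaller than the largest background shift, which was upward. Mmp11 (stromelysin 3) was bright and did not pass, at 10.01 ± 0.08 and 9.95 ± 0.05 (SD, n = 3 each), with a 95% confidence interval of the difference from -0.17 to 0.05. Mmp3 (stromelysin 1) rose by 0.50 on the log2 scale at levels of 5.26 and 5.76, within the negative control range (limma, adjusted p = 0.000203).

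Mmp13 and Mmp3 belong to a run of 10 neighbouring MMP genes, whose order in RefSeq (GRCm38.p6) is Mmp13, Mmp12, Mmp1b, Mmp3, Mmp1a, Mmp10, Mmp8, Mmp27, Mmp20 and Mmp7. These 2 genes rose, and the other 8 were too dim to be tested. The letters TGANTCA, where N is any base, were searched for in the RefSeq promoter windows. Each window ran from 250 bases before to 50 after the start of a gene. The pattern reads the same on both strands and takes in TGACTCA and TGAGTCA, which the AP-1 transcription factors (Fos and Jun dimers) bind. All 10 genes had a window, and 8 of them held the letters, 2 that rose and 6 that were too dim to be tested. The windows of Mmp27 and Mmp8 lacked these letters. In Mmp20 the match was TGAATCA, as in Adam20 and Adam25 outside the run, and not TGACTCA or TGAGTCA. Of all 32851 RefSeq windows 7.81% held TGANTCA with any base at N, and outside the run 5 of 36 family genes with a window did. The 120 bases before the start are printed for the 2 genes that rose and for 2 dim neighbours, with the AP-1 letters in capitals, to show that the same letters stand before genes that passed and genes too dim to be tested. They are at chr9:7272394-7272513 for Mmp13, chr9:7445702-7445821 for Mmp3, chr9:7464021-7464140 for Mmp1a and chr9:7502222-7502341 for Mmp10 (RefSeq, GRCm38.p6, plus strand, 5′ to 3′).
Mmp13: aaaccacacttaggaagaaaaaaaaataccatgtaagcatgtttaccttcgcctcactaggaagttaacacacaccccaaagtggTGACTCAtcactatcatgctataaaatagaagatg
Mmp3: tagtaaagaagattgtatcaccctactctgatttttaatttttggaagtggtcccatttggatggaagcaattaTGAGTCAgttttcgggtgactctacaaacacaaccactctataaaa
Mmp1a: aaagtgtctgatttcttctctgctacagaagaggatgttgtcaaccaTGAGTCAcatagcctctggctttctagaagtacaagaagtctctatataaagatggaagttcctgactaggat
Mmp10: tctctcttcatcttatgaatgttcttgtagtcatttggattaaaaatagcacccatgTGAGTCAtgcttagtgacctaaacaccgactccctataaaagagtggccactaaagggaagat
The letters begin 35 bases before the start in Mmp13, 46 in Mmp3, 73 in Mmp1a and 63 in Mmp10. A match of letters is a description and not a measured binding site.

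**Figure D2:**
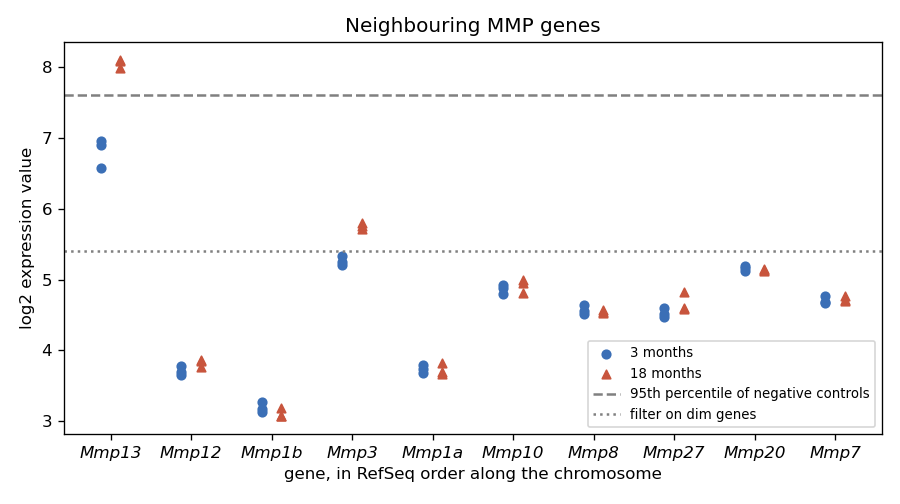
Log2 expression value (vertical axis) of the 10 neighbouring MMP genes in RefSeq order (horizontal axis); circles are the 3 young arrays and triangles the 3 aged arrays, with the 95th percentile of the negative controls (dashed, 7.61) and the filter on the mean of all arrays (dotted, 5.40). Mmp13 crosses the dashed line in the aged arrays, Mmp3 stays below it, and the other 8 genes lie below the dotted line.

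The ADAM genes showed small differences or none among the bright members. Adam9 and Adam15, sheddases of many tissues, had log2 differences of 0.17 and 0.25 (limma, adjusted p = 0.000653 and 0.0015). Levels went from 11.33 ± 0.01 to 11.50 ± 0.02 and from 8.68 ± 0.07 to 8.93 ± 0.03 (SD, n = 3 each). Both differences were smaller than the largest background shift. Adam19, a sheddase needed for heart development, read 8.37, 8.29 and 8.18 in young and 7.94, 7.93 and 7.94 in aged arrays. The groups did not overlap, and the decrease was 1.27-fold (log2 difference -0.34, limma, adjusted p = 0.000717), the largest among the 44 tested genes. Adam10, which starts Notch receptor cleavage, was at 10.78 ± 0.02 and 10.71 ± 0.02 (SD, n = 3 each) and did not pass (limma, adjusted p = 0.0868; 95% confidence interval of the difference -0.13 to -0.0044). Adam17, the enzyme that releases tumour necrosis factor, was at 9.05 ± 0.04 and 9.02 ± 0.02 (SD, n = 3 each) and did not pass either (limma, adjusted p = 0.59; interval -0.10 to 0.05).

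The other ADAM genes were dim. Adam8, known from leukocytes and osteoclasts, rose by 0.28 at levels of 6.38 and 6.65. Adam23, a neural ADAM without protease activity that binds integrins, read 5.47, 5.65 and 5.63 in young and 6.20, 6.32 and 6.30 in aged arrays, and Adam22, a related neural protein, read 5.32, 5.30 and 5.26 in young and 5.75, 5.89 and 5.73 in aged arrays. These rises of 0.69 and 0.50 passed (limma, adjusted p = 5.22e-05 and 0.000253) with groups that did not overlap, yet every value was within the negative control range. Adam11 and Adam33 did not pass. The remaining 21 ADAM genes, among them sperm genes such as Adam2, Adam3 and Adam18, were below the filter; of these, Adam5 read 4.41, 4.34 and 4.32 in young and 4.90, 4.91 and 4.89 in aged arrays, and passed in the fit without the filter (log2 difference 0.54, limma, adjusted p = 0.000209), with every value within the negative control range. Adam9 sits at the end of a run of neighbours, Adam18, Adam3, Adam5, Adam32 and Adam9, of which it alone was bright.

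ADAMTS genes rose or did not pass, and none of the 17 tested fell (limma; 0 also at an unadjusted p under 0.05, with the lowest difference, -0.13, for Adamts5). Adamts1, a protease that cuts the proteoglycans versican and aggrecan, had the largest difference of the 44 genes and ranked 110 from the top among the 20199 genes tested. It read 8.44, 8.29 and 8.13 in young and 10.32, 10.32 and 10.33 in aged arrays. The groups were far apart, with the young arrays more spread (SD 0.16, n = 3) than the aged arrays (SD 0.005, n = 3), and the rise was 4.11-fold (log2 difference 2.04, 95% confidence interval 1.88 to 2.20, limma, adjusted p = 7.47e-08). Its neighbour Adamts5, the aggrecan-cutting enzyme known from cartilage, read 9.57, 9.48 and 9.31 in young and 9.33, 9.30 and 9.35 in aged arrays. These values overlapped and the gene did not pass (limma, adjusted p = 0.133), but without young replicate 3 it was lower in aged cells (log2 difference -0.20, limma, adjusted p = 0.00277).

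Since Adamts1 changed most, the 120 bases before its start are shown, at chr16:85803114-85803233 (RefSeq, GRCm38.p6, minus strand, 5′ to 3′), with the GC box letters GGGCGG in capitals, which Sp1-type factors bind; either strand was searched.
Adamts1: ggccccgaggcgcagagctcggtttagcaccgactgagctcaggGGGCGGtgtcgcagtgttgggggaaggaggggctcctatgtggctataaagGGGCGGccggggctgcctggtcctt
The GC box letters stood in 35.7% of all 32851 windows. Of the 17 genes higher in aged cells that had a window, 11 of 18 windows held them, as did 8 of 9 windows of tested genes that did not pass and 0 of 20 windows of genes too dim to be tested. The Adamts1 window did not hold the AP-1 letters.

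Adamts12, which cuts cartilage oligomeric matrix protein, read 6.99, 6.77 and 6.67 in young and 7.84, 7.91 and 7.82 in aged arrays. The young values lay within the negative control range and the aged values above it (log2 difference 1.05, limma, adjusted p = 9.04e-06). The related Adamts7 rose by 0.47 across the same limit, from 7.29 ± 0.03 to 7.76 ± 0.03 (SD, n = 3 each; limma, adjusted p = 2.59e-05). Adamts4, an aggrecan-cutting enzyme, rose 1.22-fold, from 7.84 ± 0.14 to 8.13 ± 0.05 (SD, n = 3 each; limma, adjusted p = 0.00843). Of the procollagen N-proteinases, which trim fibrillar procollagens, Adamts14 rose 1.13-fold, a call lost without aged replicate 3. Adamts3 rose by 0.41 at levels of 5.67 and 6.08, within the negative control range. Adamts2, of the same class, was not among the 75 genes. Adamts9 and Adamts10 rose by 0.27 and 0.19, less than the largest background shift, and Adamts6, Adamts8, Adamts13, Adamts15, Adamts16, Adamts17, Adamts18 and Adamts20 did not pass.

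**Figure D3:**
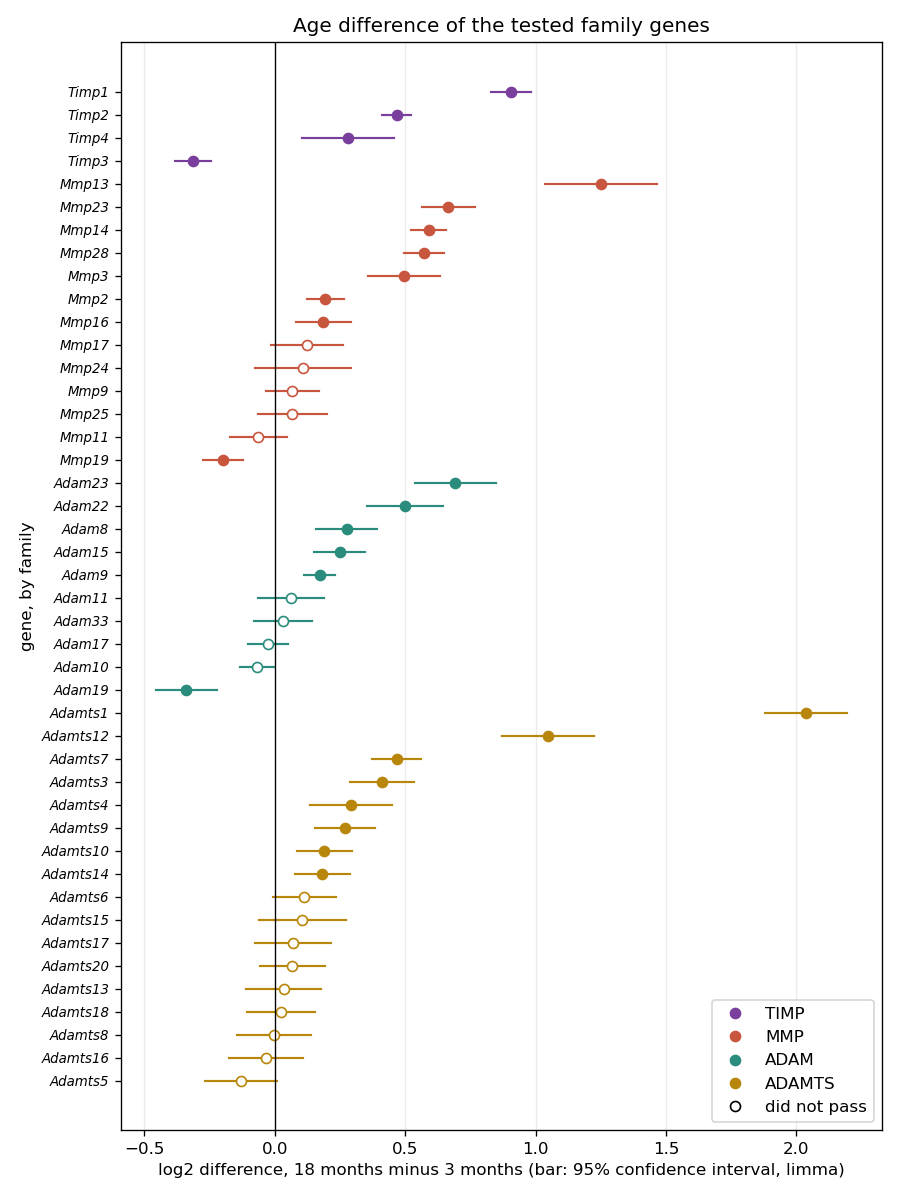
Log2 difference, aged minus young (horizontal axis), of the 44 tested genes by family (vertical axis), with the 95% confidence interval of the limma fit; filled circles passed at an adjusted p under 0.05 and open circles did not. Adamts1, Mmp13 and Adamts12 differ by more than 1, and Adam19, Timp3 and Mmp19 are the 3 genes that fell.

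Proteases were set against inhibitors by their counts. Of 40 tested proteases 20 were higher and 2 lower, with a median difference of 0.15, and of the 4 TIMPs 3 were higher and 1 lower, with a median of 0.37. Among those counted as higher, Adam22, Mmp3 and Timp4 reached the filter through their aged arrays. Timp4, which enters the TIMP median, was within the negative control range in both ages, and its call was lost without some single arrays. The protease median depends on the filter: over all 71 proteases, without it, the median was 0.067. Relative to the young means, the median protease read 0.14, 0.14 and 0.17 on the aged arrays and the median TIMP read 0.37, 0.37 and 0.38. Among the 19 proteases above the negative control range in an age, 13 were higher and 2 lower, with a median of 0.19. Only 14 of the 19 were above it in both ages. The rest, Mmp13, Mmp23, Adamts7, Adamts10 and Adamts12, were above it in aged cells only, so they entered through their rise and all count as higher. Of the 10296 genes above that range in an age 24.3% were higher and 35.6% lower. With 4 inhibitors that moved both ways, no test over these groups was made.

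Single proteases were also set against single inhibitors. For 14 pairs, chosen after their values were seen, the log2 value of the inhibitor was subtracted from that of the protease on each array, and the aged minus young difference of that log2 ratio is given. Over Timp1, the difference was -0.32 for Mmp14, -0.71 for Mmp2, -0.97 for Adam10 and 0.35 for Mmp13, whose young values lay within the negative control range. Over Timp2, it was 0.12 for Mmp14 and -0.27 for Mmp2. Over Timp3, it was above 0 for each protease taken: 0.90 for Mmp14, 0.51 for Mmp2, 2.35 for Adamts1, 0.61 for Adamts4, 0.19 for Adamts5 and 0.29 for Adam17. Adamts5 and Adam17 themselves did not pass. Between inhibitors, it was 1.22 for Timp1 over Timp3 and 0.78 for Timp2 over Timp3. The pairs share inhibitors, so that each ratio over Timp3 carries the same Timp3 values. An exact permutation test gave p = 0.1 for every pair, the smallest value that 3 arrays per age allow. No pair could therefore have passed 0.05, and these ratios are a description only.

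**Figure D4:**
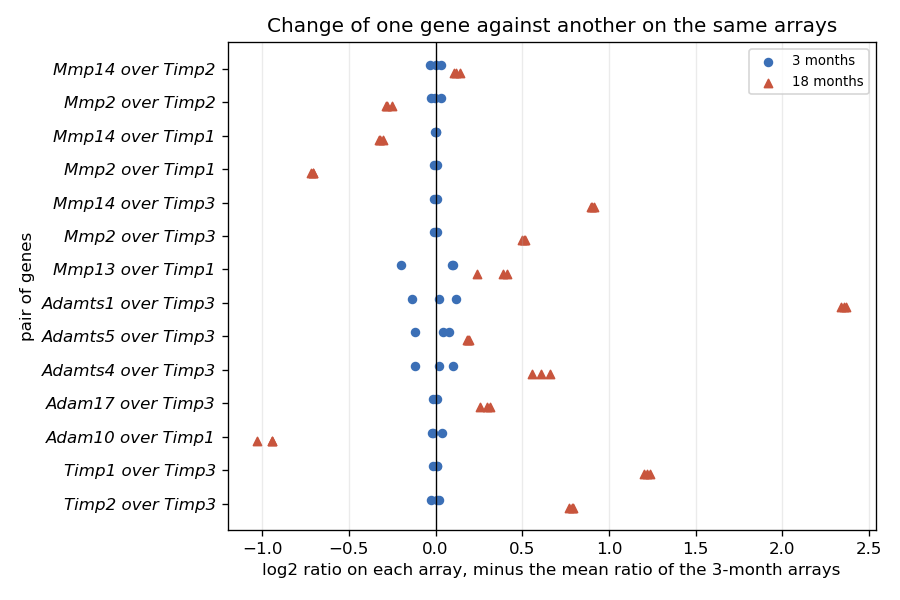
Log2 ratio of the first gene over the second on each array, minus the mean ratio of the young arrays (horizontal axis), for 14 pairs (vertical axis); circles are young and triangles aged arrays. Ratios over Timp3 lie to the right in the aged arrays, and Mmp2 and Mmp14 over Timp1 lie to the left.

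Genes that work with these proteases were taken from 9 lists with 117 measured genes. Over all 20199 genes tested, 18.5% were higher and 22.1% lower, and the share of each list is given to be read beside these. No test over the lists was made. Among related astacin proteases 2 of 5 tested rose (40%) and none fell. Bmp1, the procollagen C-proteinase, rose 1.42-fold, and its relative Tll1 had levels of 5.99 and 7.42, both under the negative control limit. Of 7 ADAMTS-like proteins and papilin, which resemble ADAMTS enzymes without the protease domain, 2 rose (28.6%) and 1 fell (14.3%). Adamtsl4, a fibrillin-binding protein, rose 2.23-fold and Adamtsl5 rose 1.22-fold, a call lost against a log2 difference of 0.3. Adamtsl3 read 9.54, 9.48 and 9.38 in young and 8.31, 8.28 and 8.28 in aged arrays, the largest decrease of these lists (log2 difference -1.18, limma, adjusted p = 1.6e-07).

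Of 12 tested activators of proenzymes 4 rose (33.3%), 2 fell (16.7%) and 6 did not pass (median 0.08). Plat, the tissue plasminogen activator, rose 1.97-fold, Plau (urokinase) rose from 7.53 to 7.89 and Plgrkt, a plasminogen receptor, rose 1.26-fold, while Plaur, the urokinase receptor, fell by 0.75 on the log2 scale. The convertase Pcsk6 fell by 0.26 at levels of 7.10 and 6.84, within the negative control range, a call lost against a difference of 0.3. Against that difference 1 of the 4 rises, that of Plat, kept its call. Furin, the convertase that activates Mmp14 and many ADAM proenzymes, was at 8.57 and 8.59 and did not pass. Of 9 tested inhibitors, clearance receptors and partners 4 rose (44.4%) and 1 fell (11.1%). Bsg (basigin), an inducer of MMP expression, rose 1.25-fold, Sparc and the hyaluronan receptor Cd44 rose 1.19-fold and 1.14-fold, and Lrp1, which clears MMP and TIMP complexes, rose 1.15-fold, whereas the integrin gene Itgav fell by 0.39. Against a log2 difference of 0.3, 0 of this list stayed higher and 0 lower. The rises of Sparc, Cd44 and Lrp1 were smaller than the largest background shift. Reck, a membrane inhibitor of MMPs, was at 6.96 and 7.06 and did not pass.

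Of 8 tested iRhoms and tetraspanins, which carry Adam17 and Adam10 to the surface, 1 rose (12.5%), 1 fell (12.5%) and 6 did not pass. Tspan17 rose 1.46-fold and Tspan15 fell by 0.50 on the log2 scale. Without young replicate 3, Tspan33 passed too, so that 2 rose. The iRhoms Rhbdf1 and Rhbdf2, Frmd8, Tspan5 and Tspan14 were bright and did not pass. Of 27 cell surface substrates of Adam10 and Adam17, 17 rose (63.0%), 1 fell (3.70%) and 9 did not pass, with a median of 0.20. Against a log2 difference of 0.3, 4 stayed higher, and 7 of the 18 differences that passed were smaller than the largest background shift. Vcam1, an adhesion molecule, rose 2.01-fold, Cdh11, the cadherin of stromal cells, 1.92-fold, Jag1, a Notch ligand, 1.78-fold and Il6ra, the interleukin 6 receptor, 1.73-fold. Hbegf, a growth factor released by shedding, fell by 0.91. With quantile normalization, with the filter at the upper 30% or without young replicate 3, Alcam passed as well and 2 of these substrates were lower. Of 13 matrix substrates of ADAMTS enzymes 7 rose (53.8%) and 1 fell (7.69%). Vcan (versican), the proteoglycan that Adamts1 cuts, rose 2.98-fold, from 8.79 ± 0.08 to 10.36 ± 0.01 (SD, n = 3 each), and Thbs1 and Thbs2 rose 2.64-fold and 2.63-fold. Fmod (fibromodulin) had levels of 5.85 and 7.39. The decrease, of Vwf by 0.14 within the negative control range, did not pass after median centring, with the replicate block, against a difference of 0.3, or without young replicate 2 or any 1 aged replicate, and Vwf was not in the fit with the filter at the upper 30%. Of 12 MMP substrates 7 rose (58.3%) and 2 fell (16.7%). The collagen genes Col3a1, Col1a1, Col5a1 and Col4a1 rose 3.61-fold, 1.73-fold, 1.71-fold and 1.75-fold and Col1a2 rose 1.48-fold, while Lamb1 and Fn1 fell by 0.58 and 0.23. The call of Fn1 was lost against a difference of 0.3.

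Among 16 tested regulators of metalloproteinase transcription 4 rose (25%), 5 fell (31.25%) and 7 did not pass (median -0.02). Il1r1, the interleukin 1 receptor, and Stat3 rose 1.53-fold and 1.37-fold, and Jun rose 1.21-fold, less than the largest background shift. Fos, with a difference of 0.14 at levels of 7.15 and 7.29, was dim and barely passed (limma, adjusted p = 0.0446). Its call was lost with quantile normalization, without the filter, with the replicate block, against a difference of 0.3 and without each array other than young replicate 1. Without young replicate 1, Tgfb1 and Tgfbr2 passed as well and 6 regulators were higher. Fosl2, Jund, Rela, Tgfb1 and Tgfbr2 were bright and did not pass. The ETS factors Ets2, Etv5 and Ets1 fell by 0.40, 0.50 and 0.34, Smad3 by 0.38 and Fosl1 by 0.16. The call of Fosl1 was lost with median centring, without aged replicate 1 and against a difference of 0.3. Against that difference Ets1, Ets2 and Smad3 lost their calls too. Junb, Runx2 and Nfkb1 were not analysed here.

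**Figure D5:**
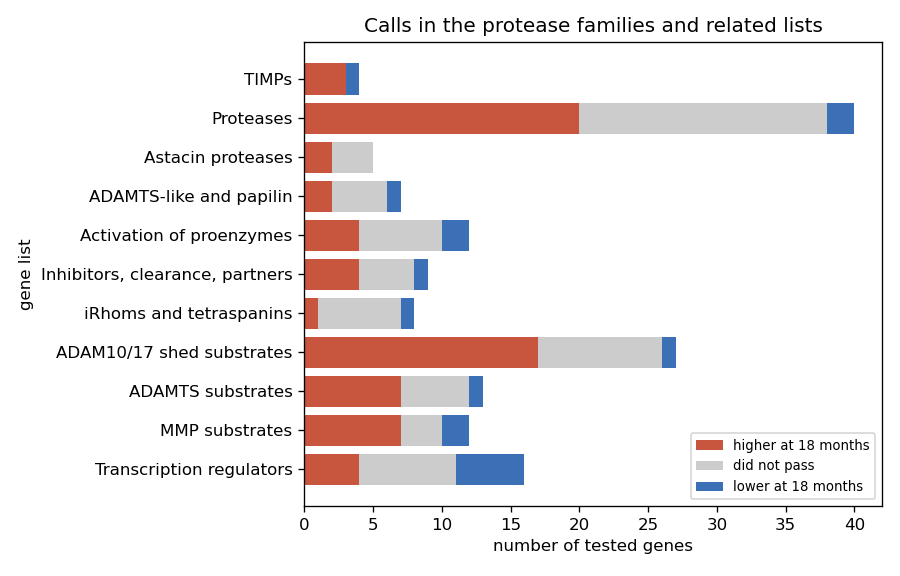
Number of tested genes (horizontal axis) in the TIMPs, the proteases and 9 related gene lists (vertical axis), split into those higher in aged cells, those that did not pass and those lower in aged cells (limma, adjusted p under 0.05). Higher calls are the larger share among proteases (20 of 40) and shed substrates (17 of 27), and the regulators of transcription hold 4 higher and 5 lower. Over all 20199 genes tested, 18.5% were higher and 22.1% lower.

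Markers of cell types that also make these proteases were measured beside the families. Over all 20199 genes tested, 18.5% were higher and 22.1% lower. The shares higher and lower were 60% and 10% for stromal, 55.6% and 22.2% for pericyte and smooth muscle, and 14.3% and 28.6% for endothelial markers. Of 10 tested stromal and fibroblast markers 6 rose and 1 fell, and the mean log2 value of the 11 measured ranged from 8.57 to 8.64 over young and from 9.16 to 9.21 over aged arrays. Among markers of pericytes and smooth muscle 5 of 9 tested were higher and 2 lower, with list means of 7.84 to 7.87 and 8.03 to 8.04. Of 10 endothelial markers none lay above the negative control range, 7 were tested, 1 was higher and 2 were lower. The higher one was Kdr, a receptor for vascular endothelial growth factor, at 5.93 and 6.62 (log2 difference 0.69, limma, adjusted p = 1.33e-05), and the lower ones were Tek and Vwf. The part of the stromal and smooth muscle markers in the rises of Adamts1, Mmp14 and Timp1 was not tested.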

How the data were processed

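RNA was hybridised to 6 Affymetrix arrays, and the authors deposited a log2 expression value for each probe set on each array. MAS5 is named in the submitters' processing notes; how background and scaling were set is not stated there. No detection calls were used. The precision is limited by the number of arrays, 3 per age. The members and lists were chosen with earlier results of these data known. The rule for named genes takes all TIMPs, every member that passed or lay above the negative control range, and up to 4 genes per list, plus list genes named for their role after their values were seen. Symbols were updated through RefSeq (GRCm38.p6), and 31270 transcript probe sets had 1 gene and 1480 several. For each gene the probe set with the highest mean was kept, and genes with a mean under 5.40, the median of transcript clusters, were not tested. Ages were compared with limma 3.58.1 in R 4.3.3 (lmFit, eBayes with trend), adjusted by Benjamini-Hochberg over 20199 genes; the fit was tested on simulated data. Folds were taken from the log2 differences. Promoter windows matched 46 of the 75 genes. ADAM genes were grouped by known role because no protein sequences were used here. The 14 alternatives were other scaling, filters, probe set rules and variance models, a replicate block, a test against a log2 difference of 0.3 and each array left out. Background correction could not be varied without scanner files.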

Additional observations from a re-analysis of the deposited data

Results flagged for a closer look

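A probe set outside the comparisons, because it lists both Adam12 and the noncoding gene 5830403F22Rik, differed between the ages by 1.17 on the log2 scale. It read 7.21, 7.20 and 7.16 in young and 8.34, 8.36 and 8.40 in aged arrays, and its signal cannot be assigned to either gene.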

How the results depend on the processing

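Quantile normalization, median centring and eBayes without trend changed the call of none of the 44 tested members. Averaging probe sets cannot change a member's values, as each has a single probe set. Without the filter no tested member changed its call and Adam5 was added, for 24 members and 21 proteases higher. Replicate numbers did not pair the arrays, as same-numbered arrays had correlations of -0.05, 0.07 and 0.02 in their deviations from the group means; with the number as a replicate block 23 members were higher and 3 lower, the same counts, with medians of 0.15 for proteases and 0.37 for TIMPs. A test against a log2 difference of 0.3 (limma treat) left 10 members higher, 8 of them proteases, and 0 lower, so 0 proteases and 0 TIMPs lower (0 also at an unadjusted p under 0.05), and over all genes 1171 higher and 816 lower. The 10 were Adamts1, Mmp13, Adamts12, Timp1, Adam23, Mmp23, Mmp14, Mmp28, Timp2 and Adamts7. The protease median was 0.17 with median centring, 0.067 without a filter and 0.18 with only the upper 30% of transcript clusters, and the TIMP median was 0.44 with quantile normalization, 0.39 with median centring and 0.47 with the upper 30%, where Timp4 drops out. Leaving out each array gave 20 to 24 members higher and 3 to 4 lower, and TIMP medians of 0.35 to 0.41. Of the 26 called members 23 kept their call without each array; the exceptions were Timp4, Mmp16 and Adamts14, and Adamts5 and Mmp17 gained a call without young replicate 3. Levels under 7.61 limit what the dim members can show.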
